A study of Gossypium hirsutum with 6 samples.

Results

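Sulfate enters plant cells through SULTR transporters, is activated by ATP sulfurylase and is then reduced by adenosine 5′-phosphosulfate reductase (APR), the step known in Arabidopsis to control much of the flux into cysteine. Sulfite reductase makes sulfide from the product of APR, and sulfide is joined to O-acetylserine to give cysteine. LSU (response to low sulfur) and SDI (sulfur deficiency induced) genes are used in Arabidopsis as transcript markers of low sulfur supply. The genes described here are the cotton copies of 10 Arabidopsis loci of this system, namely the transporters SULTR1;1 (AT4G08620), SULTR1;2 (AT1G78000), SULTR2;1 (AT5G10180) and SULTR3;1 (AT3G51895), the reductases APR1 (AT4G04610), APR2 (AT1G62180) and APR3 (AT4G21990), and the markers SDI1 (AT5G48850), LSU1 (AT3G49580) and LSU2 (AT5G24660). They were found by the Arabidopsis locus that the deposited gene table gives as the match of a cotton gene. Of 70478 genes in the table, 20 carried 1 of these loci, for 7 of the 10 loci, and no row carried SULTR1;2, APR2 or LSU2. By the prefix of the gene IDs, 10 copies lie in the A subgenome of this allotetraploid, 9 in the D subgenome and 1 on a scaffold.

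Wild-type seedlings of Gossypium hirsutum CCRI24 were raised for 4 d on agar medium and then transferred for 24 h to medium that held either 5 μM AZD or DMSO, in which AZD is dissolved. AZD is an inhibitor that competes with ATP at the TOR kinase. The labels give an age of 5 d at harvest for both groups, and the tissue as seedling. RNA was sequenced for 3 libraries labelled DMSO and 3 labelled AZD. The values are FPKM (fragments per kilobase of transcript, scaled to the mapped fragments). Scaling by gene length lets levels of different genes be set roughly side by side. Summed over all genes, FPKM ranged from 4236810 to 4355430 in the DMSO-labelled libraries. The sums were 6222400, 2773880 and 5894690 in AZD replicates 1, 2 and 3. The median FPKM above 0 lay between 2.81 and 2.90 in all 6 libraries.

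The direction of every difference below rests on the sample labels. For 68 listed genes, the log2 ratio of the group means computed here equalled in size, within 0.01, the printed fold change, and had the opposite sign for all 68. Either the labels or the printed signs may be exchanged. QRT-PCR of selected genes in the study, a separate assay, ran in the direction of the printed signs. The study also reports carbon fixation as highly enriched among its down-regulated genes. Whether the labels or the signs are exchanged was not tested here. The libraries are therefore named as "labelled AZD" and "labelled DMSO" throughout. The first principal component (37.9% of the variance) separated the groups, and on the second (20.8%) DMSO replicate 1 lay at 103.8 against −52.06 and −45.26 for the other DMSO libraries. Light-harvesting antenna genes, with 47 copies, served as markers of green tissue. Their summed FPKM ranged from 7871 to 14426 in the DMSO-labelled libraries and from 29634 to 32962 in the AZD-labelled ones. By the test described below, 20 of the 37 tested copies were higher and 0 lower. Of all tested genes, 1.89% were higher and 2.8% lower. Markers of root hairs and endodermis summed to 19.5 to 40.8 FPKM and 20.1 to 22.1 FPKM over 60 copies, 17 of them listed at 0 in every library and 0 of 9 tested past the test in either direction. The defining endodermis genes CASP1, CASP2, CASP4 and CASP5 and the root hair gene RHD6 were at or near 0 in all 6 libraries. Antenna transcripts thus moved with the labels, and their part in the results below was not tested. In such whole-seedling RNA, fewer cells of a type and less RNA per cell cannot be told apart.

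Of the 20 copies, 13 averaged at least 0.5 FPKM across the 6 libraries and were tested. The APR1 copy, 1 APR3 copy and 1 LSU1 copy were higher in the AZD-labelled libraries, by 2.6-fold, 3.3-fold and 11.7-fold in the ratio of group means. No copy was lower. The other 10 did not pass the test, limma on log2(FPKM + 0.5) with Benjamini-Hochberg adjustment over all 43158 tested genes and a limit of 0.05. The 3 higher copies are 23.1% of those tested, where 1.89% of all tested genes were higher and 2.8% were lower (4.69% in either direction). At an unadjusted p under 0.05 there were 10 of the 13, of which 9 were higher. Over all 43158 tested genes there were 10087, of which 4932 were higher. The groups did not overlap for 9 copies with the libraries labelled AZD above, the tested copies of LSU1, SDI1, APR1 and APR3. For 1 copy they were apart with AZD below (14.5% and 15.5% of all tested genes). Of the 9, Gh_D07G1560 of SDI1 reached the filter only through the libraries labelled AZD (mean of 0.349 FPKM in those labelled DMSO). It is also among the 9 higher at an unadjusted p under 0.05, so its place in these counts is no support. Gh_D10G0996 of SULTR2;1 reached the filter only through the libraries labelled DMSO (mean of 0.440 FPKM in those labelled AZD). Both enter the median below. The median log2 fold change of the 13 copies was 1.16, and that of all tested genes −0.01. Since the 10 loci were chosen with earlier results of these data known, these shares describe the copies and give no independent support.

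**Figure D1:**
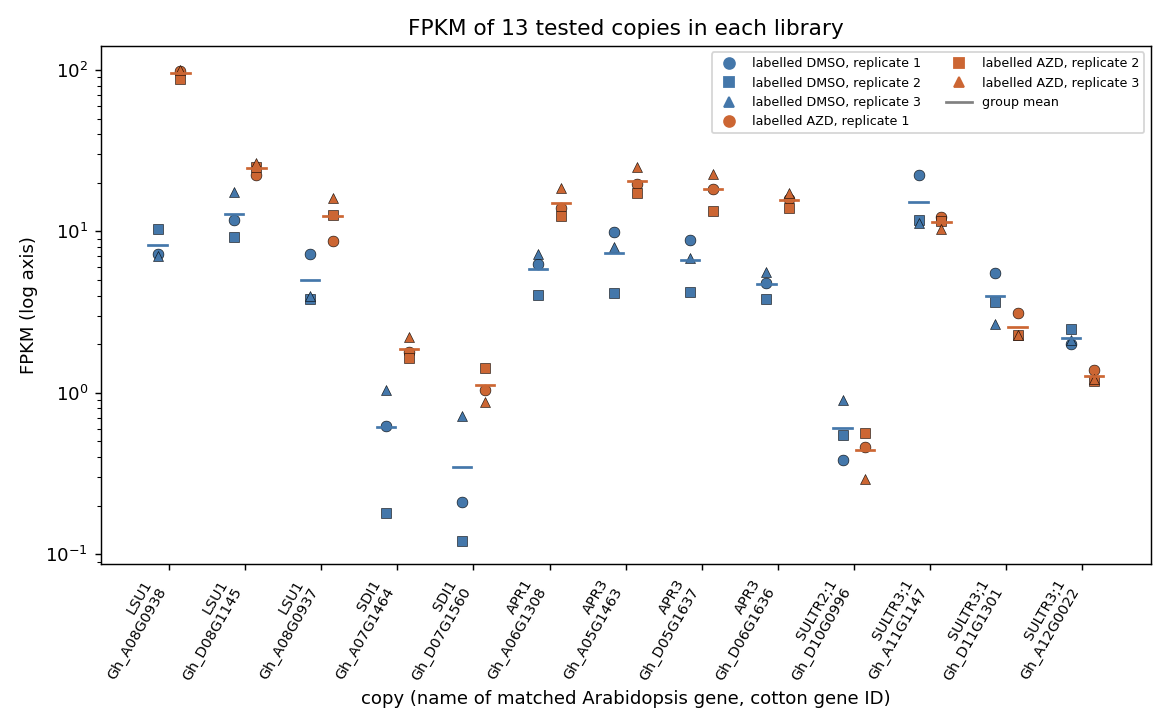
FPKM (log axis) of the 13 tested copies in each library, with a horizontal line at each group mean and the marker shape giving the replicate. The 9 tested copies of LSU1, SDI1, APR1 and APR3 have all 3 AZD libraries above all 3 DMSO libraries, and the 4 transporter copies do not. Of the 9, Gh_D07G1560 reached the filter only through the AZD libraries.

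The uptake transporters gave few values. SULTR1;1, a high-affinity transporter of the root surface in Arabidopsis, was matched by a single scaffold gene (Gh_Sca065142G01), which was listed at 0 in all 6 libraries. SULTR2;1, a low-affinity transporter of vascular tissue in Arabidopsis, had its leading copy Gh_D10G0996 at 0.384, 0.547 and 0.899 FPKM in the DMSO-labelled libraries and 0.462, 0.566 and 0.294 FPKM in the AZD-labelled ones. The groups overlapped, with a log2 fold change of −0.22 ± 0.28 (SE, adjusted p = 0.683). The other copy, Gh_A10G0765, gave 0.166, 0.144 and 0.208 FPKM versus 0.0822, 0.0300 and 0.0539 FPKM, with the groups apart, and was below the filter and not tested.

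SULTR3;1, a chloroplast sulfate transporter in Arabidopsis, had the highest levels among the transporter copies and the most copies, 6, of which 3 were tested. Its leading copy Gh_A11G1147 stood at 22.4, 11.8 and 11.2 FPKM in the DMSO-labelled libraries and at 12.2, 11.5 and 10.4 FPKM in the AZD-labelled ones. Only DMSO replicate 1 stood clear of the AZD range, and the log2 fold change was −0.33 ± 0.27 (SE, adjusted p = 0.521). Gh_D11G1301 gave 5.54, 3.68 and 2.67 FPKM versus 3.12, 2.27 and 2.28 FPKM, again with overlap (log2 fold change −0.51, adjusted p = 0.295). Gh_A12G0022, at 1.997, 2.47 and 2.11 FPKM versus 1.38, 1.19 and 1.23 FPKM, was the 1 tested copy with all libraries labelled AZD below all those labelled DMSO. Its log2 fold change of −0.61 ± 0.14 (SE) did not pass the test (adjusted p = 0.0669). The 3 remaining copies had means of 0.0931 to 0.358 FPKM and were not tested. Gh_A11G1147 made up 64.1% to 73.3% of the summed FPKM of the 6 copies in each library.

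All 4 APR copies had every AZD-labelled library above every DMSO-labelled one, and 2 of the 4 passed the test. The single copy of APR1 (AT4G04610), Gh_A06G1308, stood at 6.24, 4.04 and 7.25 FPKM in the DMSO-labelled libraries and at 14.0, 12.5 and 18.7 FPKM in the AZD-labelled ones. The lowest AZD library was thus well above the highest DMSO library. The means were 5.84 ± 1.64 and 15.04 ± 3.22 FPKM (SD, n = 3), with a log2 fold change of 1.31 ± 0.25 (SE, limma adjusted p = 0.0408). This call was lost when any 1 of the 6 libraries was left out (adjusted p = 0.0558 to 0.150), without the filter (adjusted p = 0.0547) and without the trend (adjusted p = 0.0507).

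APR3 (AT4G21990) had 3 copies. Gh_D06G1636 stood at 4.82, 3.79 and 5.62 FPKM versus 15.9, 14.0 and 17.2 FPKM, the narrowest spread within groups of the 3. Its means were 4.74 ± 0.915 and 15.7 ± 1.59 FPKM (SD, n = 3) and its log2 fold change was 1.64 ± 0.17 (SE, limma adjusted p = 0.00923). It no longer passed without AZD replicate 1 (adjusted p = 0.0637) or without AZD replicate 3 (adjusted p = 0.0561), and it passed without each of the other 4 libraries. Gh_A05G1463, the most abundant APR copy, gave 9.94, 4.14 and 7.98 FPKM versus 19.5, 17.2 and 25.1 FPKM. Gh_D05G1637 gave 8.85, 4.22 and 6.84 FPKM versus 18.3, 13.5 and 22.8 FPKM. In both the groups were apart, with log2 fold changes of 1.49 and 1.41, and both missed the limit (adjusted p = 0.0539 and 0.0532). Without DMSO replicate 1 both passed (adjusted p = 0.0371 and 0.0386).

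The 4 APR copies ordered the libraries alike at their ends. Each was lowest in DMSO replicate 2 and highest in AZD replicate 3, and AZD replicate 2 was the lowest of the libraries labelled AZD for each. Of the 9 tested copies of LSU1, SDI1, APR1 and APR3, 8 were lowest in DMSO replicate 2 and 8 highest in AZD replicate 3. The copies share these libraries, so that their values within a group are not independent of each other.

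The widest difference among the copies of the 10 loci was that of an LSU1 copy. LSU proteins are small coiled-coil proteins that bind other proteins in Arabidopsis. Gh_A08G0938, matched to LSU1 (AT3G49580), stood at 7.22, 10.3 and 7.06 FPKM in the DMSO-labelled libraries and at 98.4, 87.7 and 100.7 FPKM in the AZD-labelled ones. Its means were 8.19 ± 1.81 and 95.6 ± 6.91 FPKM (SD, n = 3), and its log2 fold change was 3.48 ± 0.18 (SE, limma adjusted p = 0.00136). By size this rise ranked 53 and by p-value 16 among the 43158 tested genes. The call held without each of the 6 libraries in turn (adjusted p = 0.00166 to 0.0151).

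The other LSU1 copies had smaller fold changes. Gh_A08G0937, whose ID directly precedes that of Gh_A08G0938, stood at 7.22, 3.79 and 3.97 FPKM versus 8.66, 12.6 and 16.2 FPKM. Gh_D08G1145, in the D subgenome, stood at 11.8, 9.20 and 17.7 FPKM versus 22.3, 25.2 and 26.6 FPKM. In both, all libraries labelled AZD were above all those labelled DMSO, and neither passed the test (log2 fold changes of 1.25 ± 0.31 and 0.96 ± 0.24, SE, adjusted p = 0.0742 and 0.0767). Gh_A08G0937 did pass without DMSO replicate 1 (adjusted p = 0.0362). Next to Gh_D08G1145 by its ID is Gh_D08G1146, which the table matches to LSU4, a locus outside the 10. It stood at 5.91, 2.16 and 4.86 FPKM versus 22.3, 33.8 and 37.0 FPKM and was higher (log2 fold change 2.77 ± 0.37, SE, limma adjusted p = 0.0173). It no longer passed without DMSO replicate 3 or without any 1 of the libraries labelled AZD (adjusted p = 0.0634 to 0.0919).

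**Figure D2:**
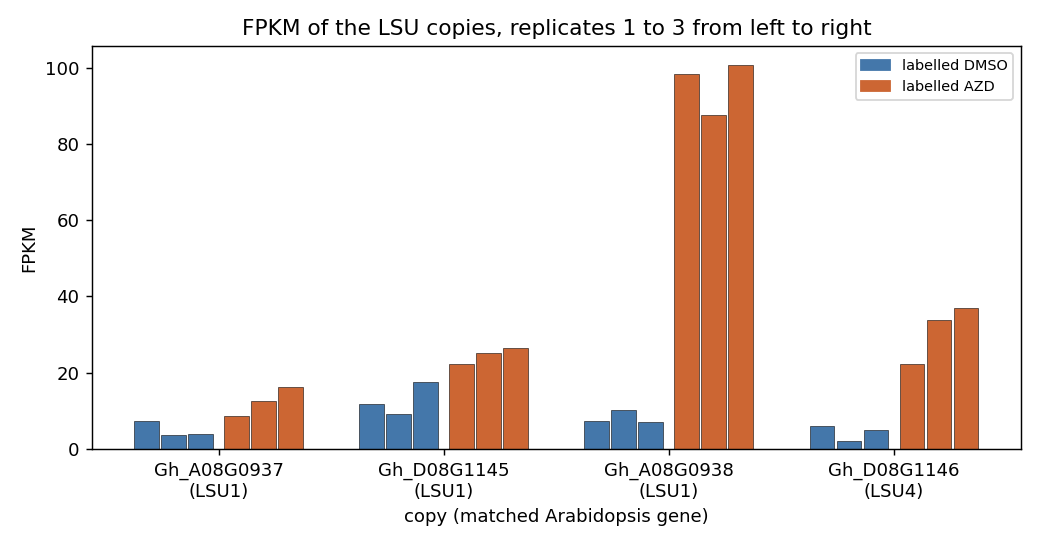
FPKM of the 4 copies matched to LSU1 or LSU4, with 1 bar per library and replicates 1 to 3 from left to right within each label. Gh_A08G0938 reaches 87.7 to 100.7 FPKM in the AZD-labelled libraries, where the other 3 copies stand between 8.66 and 37.0 FPKM.

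No single LSU1 copy led in every DMSO-labelled library. Gh_D08G1145 held 45% and 61.5% of the summed FPKM of the 3 LSU1 copies in DMSO replicates 1 and 3 and 39.5% in DMSO replicate 2, where Gh_A08G0938 was ahead with 44.2%. In the libraries labelled AZD, Gh_A08G0938 held 76.1%, 69.9% and 70.2% and Gh_D08G1145 17.2%, 20.1% and 18.5%. The unequal response of these leading copies was tested on their log2 ratio within each library. The pair was set by matched locus and mean FPKM, so its copies need not be A and D counterparts. Gh_D08G1146, matched to LSU4, was outside it. The ratio of Gh_A08G0938 to Gh_D08G1145 was −0.67, 0.15 and −1.26 on the log2 scale in the DMSO-labelled libraries and 2.12, 1.78 and 1.90 in the AZD-labelled ones. The difference between the labels was 2.53 ± 0.35 (SE, limma adjusted p = 0.0359), and 1.73% of 11221 loci with such a pair passed in either direction, 0.766% with the leading copy gaining as here. It passed without DMSO replicate 2 (adjusted p = 0.0308) and was lost without any 1 of the other 5 libraries (adjusted p = 0.0623 to 0.154).

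The leading copies of the other loci gave no such difference past the test. For APR3 the log2 ratio of Gh_A05G1463 to Gh_D05G1637 differed between the labels by 0.08 ± 0.12 (SE, adjusted p = 0.802), and each of the 3 APR3 copies held 20.4% to 42.1% of their sum in every library. For SDI1 the difference was 0.19 ± 0.25 (SE, adjusted p = 0.748), and for the leading transporter copies Gh_A11G1147 and Gh_D11G1301 it was 0.18 ± 0.19 (SE, adjusted p = 0.681).

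**Figure D3:**
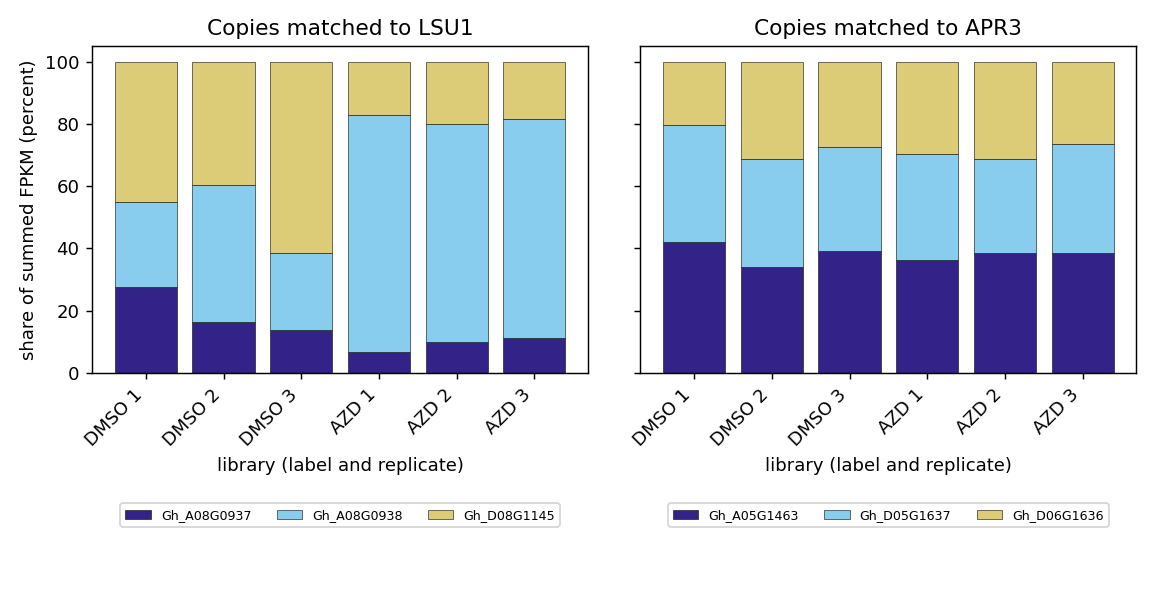
Share of each copy in the summed FPKM (percent) of its locus, 1 stacked bar per library, for LSU1 on the left and APR3 on the right. Gh_A08G0938 takes 69.9% to 76.1% of the LSU1 sum in the AZD-labelled libraries and 24.6% to 44.2% in the DMSO-labelled ones, while the APR3 shares stay between 20.4% and 42.1% in all 6 libraries.

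The deposited values do not give the fragments behind them. Within each library the FPKM of the 4 LSU copies stood in ratios of whole numbers within 0.01. The smallest such numbers for Gh_A08G0938 were 11, 19 and 16 in DMSO replicates 1, 2 and 3, and 159 and 153 in AZD replicates 1 and 2. For Gh_D08G1145 they were 18, 17 and 40, and 36 and 44. For Gh_A08G0937 they were 11, 7 and 9, and 14 and 22. In AZD replicate 3 the numbers were 87, 23 and 14 in the same order of genes, with 1.16 FPKM per unit against 0.441 to 0.657 in the other libraries, so that they may be a fraction of the fragments there. The copies are close relatives, and reads that match several of them could be divided between them in ways that the deposited values do not show.

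Sums over the copies of a locus do not depend on how reads are divided among those copies. They can still depend on reads divided with copies of another locus. Gh_D08G1146, matched to LSU4, is such a copy and is not part of the LSU1 sum. The 3 LSU1 copies summed to 26.3, 23.3 and 28.7 FPKM in the DMSO-labelled libraries and to 129, 126 and 143 FPKM in the AZD-labelled ones, a 5.1-fold ratio of the means. The log2 fold change of the sum was 2.33 ± 0.12 (SE, limma adjusted p = 6.36e-04), and it passed without each of the 6 libraries in turn. The 3 APR3 copies summed to 23.6, 12.1 and 20.4 FPKM versus 53.8, 44.7 and 65.1 FPKM (log2 fold change 1.55 ± 0.26, SE, adjusted p = 0.0233). Among the 6 loci with a mean sum of at least 0.5 FPKM, LSU1, APR1 and APR3 were higher and 0 were lower, where 3.64% of 13335 loci were higher and 4.66% lower (8.29% in either direction). The sum of APR1 is its single copy, so its call here is not separate from that of Gh_A06G1308. Its values are the same, and the limma adjusted p (0.0273 among loci, 0.0408 among genes) differs with the set fitted. The number of loci past the test was 1, that of LSU1, without DMSO replicate 3 and without any 1 of the libraries labelled AZD. SULTR3;1 summed to 30.8, 18.3 and 16.7 FPKM versus 17.7, 15.7 and 14.4 FPKM, with overlap (log2 fold change −0.40, adjusted p = 0.322).

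SDI1 (AT5G48850), a repressor of glucosinolate synthesis under low sulfur in Arabidopsis, was far less abundant than LSU1. Gh_A07G1464 stood at 0.627, 0.181 and 1.05 FPKM in the DMSO-labelled libraries and at 1.79, 1.64 and 2.22 FPKM in the AZD-labelled ones. The groups were apart, and the log2 fold change of 1.16 ± 0.32 (SE) did not pass the test (adjusted p = 0.0947). Gh_D07G1560 gave 0.210, 0.121 and 0.716 FPKM versus 1.04, 1.42 and 0.879 FPKM (log2 fold change 0.97, adjusted p = 0.140). With a mean of 0.349 FPKM in the DMSO-labelled libraries, this copy entered the test only through those labelled AZD. The pseudocount of 0.5 FPKM makes the fold changes of copies at this level smaller than their ratios of means, which were 3.05 and 3.18. The copies Gh_A11G1258 and Gh_D11G1407, with means of 0.432 and 0.253 FPKM, were not tested, and their groups overlapped. Gh_A11G1258 gave 0.667, 0.404 and 0.364 FPKM versus 0.197, 0.570 and 0.387 FPKM, with the lower mean in the libraries labelled AZD. It held 39.0% and 57.2% of the SDI1 sum in DMSO replicates 1 and 2. Gh_D11G1407 gave 0.208, 0 and 0.331 FPKM versus 0.137, 0.370 and 0.469 FPKM. Summed over the 4 copies, SDI1 gave 1.71, 0.705 and 2.46 FPKM versus 3.16, 4.00 and 3.96 FPKM (log2 fold change 1.07, adjusted p = 0.0985).

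At the limit of the mean, the copies just inside were Gh_D10G0996 (0.525 FPKM) and Gh_D07G1560 (0.730 FPKM). Those just outside were Gh_A11G1258 (0.432 FPKM) and Gh_A10G1034 of SULTR3;1 (0.358 FPKM). Gh_A10G1034 gave 0.192, 0.191 and 0.301 FPKM in the DMSO-labelled libraries and 0.572, 0.597 and 0.295 FPKM in the AZD-labelled ones.

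The rest of the pathway was followed in 34 further loci, of which 25 had at least 1 of 84 matched copies. Of 60 tested copies, 10 were higher and 0 lower, 16.7% against 1.89% of all tested genes higher. At an unadjusted p under 0.05 there were 20 of the 60, of which 16 were higher. Over all 43158 tested genes there were 10087, of which 4932 were higher. The median log2 fold change of the 60 copies was 0.13. Among the 10, Gh_A05G1971 of SULTR2;2 reached the filter only through the libraries labelled AZD. Among the 20, so did Gh_D06G0344 of SULTR1;3, and Gh_D13G0546 of SULTR1;3 reached it only through those labelled DMSO. This list too was chosen with earlier results of these data known, so its shares describe the copies and give no independent support. Without a single library the count past the test ranged from 0, when any 1 of the libraries labelled AZD was left out, to 10 without DMSO replicate 1 (9 higher and 1 lower). It was 2 without DMSO replicate 2 and 1 without DMSO replicate 3.

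The 4 higher copies among 10 of the activation and reduction steps flank APR in the pathway. ATPS2, an ATP sulfurylase, stood in its copy Gh_A05G1602 at 6.92, 8.00 and 7.05 FPKM versus 14.2, 15.7 and 12.9 FPKM (log2 fold change 0.92, limma adjusted p = 0.0210). Sulfite reductase (SiR) was higher in 3 of its 4 copies. Its leading copy Gh_A13G1875 stood at 11.01, 10.9 and 11.8 FPKM versus 20.0, 20.1 and 18.8 FPKM (log2 fold change 0.78, adjusted p = 0.0210). Gh_D13G2263 and Gh_D07G1227 had log2 fold changes of 0.74 and 0.86 (adjusted p = 0.0284 and 0.0435), and Gh_A07G1122 had 0.23 and did not pass. The leading copy of ATPS1, Gh_D02G0399, had 0.44 (adjusted p = 0.350), with overlap between the groups. Both copies of ATPS3, the most abundant ATP sulfurylase locus here, lay below 0 and did not pass (log2 fold changes of −0.39 and −0.15, adjusted p = 0.356 and 0.714).

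Of 16 copies for cysteine synthesis, 3 were higher. OASB, the plastid O-acetylserine (thiol) lyase that makes cysteine from sulfide, stood in Gh_D09G2034 at 41.0, 44.0 and 40.8 FPKM versus 81.7, 65.4 and 73.6 FPKM (log2 fold change 0.80, limma adjusted p = 0.0340). Its other copy, Gh_A09G2279, gave a log2 fold change of 0.73 (adjusted p = 0.0382). The serine acetyltransferase SERAT3;2, which supplies O-acetylserine, was higher in Gh_A02G1695 (log2 fold change 0.56, adjusted p = 0.0458), while the sum of its copies did not pass (adjusted p = 0.0712). The most abundant serine acetyltransferase locus, SERAT2;2, had 3 of its 4 copies at a log2 fold change of −0.62 and the other at 0.02, and neither a copy nor their sum passed (sum −0.60, adjusted p = 0.173). None of the 4 tested copies for glutathione synthesis, the 7 for the APS kinases (APK) that lead to sulfation and the 6 of SLIM1 passed. SLIM1 is the transcription factor that governs much of the low-sulfur response in Arabidopsis, and its leading copy Gh_A13G1864 gave a log2 fold change of −0.45 (adjusted p = 0.351).

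Among the other transporters, 1 of 12 tested copies was higher. Gh_A05G1971 of SULTR2;2, a low-affinity vascular transporter in Arabidopsis, stood at 0.546, 0.284 and 0.224 FPKM versus 2.22, 1.93 and 1.62 FPKM (log2 fold change 1.52, limma adjusted p = 0.0229). With a mean of 0.351 FPKM in the DMSO-labelled libraries, it entered the test only through the libraries in which it is high. The vacuolar efflux transporters SULTR4;1 and SULTR4;2 lay on opposite sides of 0. Gh_A05G3065 of SULTR4;1 gave 7.15, 4.06 and 3.18 FPKM versus 9.10, 8.47 and 8.31 FPKM (log2 fold change 0.85, adjusted p = 0.125). For SULTR4;2, neither copy passed alone, and the sum of both was lower, at 6.69, 3.88 and 5.83 FPKM versus 2.09, 2.19 and 2.84 FPKM (log2 fold change −1.03, limma adjusted p = 0.0402). By such sums, 5 of 24 tested loci were higher (ATPS2, SiR, OASB, LSU4 and SULTR2;2) and this 1 was lower, beside 3.64% and 4.66% of all tested loci. The lower call passed only without DMSO replicate 2 when libraries were left out in turn (adjusted p = 0.0259 to 0.153), and the 5 higher ones each passed in 2 to 4 of these 6 cases. Of the other low-sulfur markers, SDI2 was higher in its copy Gh_D10G1425, at 0.218, 0.376 and 0.941 FPKM versus 2.004, 2.09 and 2.102 FPKM (log2 fold change 1.41, adjusted p = 0.0464). Its other copy, Gh_A10G1084, the sum of both and the 2 tested copies of SHM7 did not pass (adjusted p = 0.306 for the copy and 0.0858 for the sum). The call of Gh_D10G1425 was lost in 5 of 6 fits that left out a library (adjusted p = 0.0526 to 0.168 in these), with a pseudocount of 0.1 FPKM, and with no filter or one of 1 FPKM (adjusted p = 0.0593, 0.0603 and 0.0523).

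**Figure D4:**
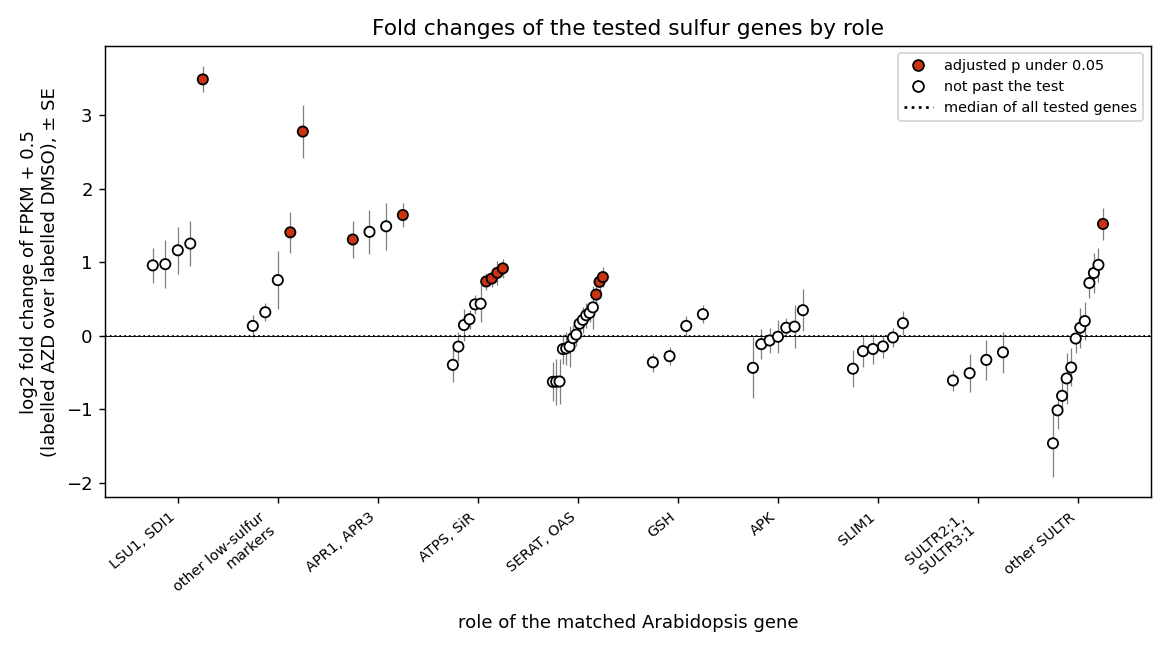
Log2 fold change of FPKM + 0.5 (labelled AZD over labelled DMSO) of the 13 tested copies of the 10 loci and the 60 of the wider list, grouped by role, with bars of ± 1 SE, filled points for an adjusted p under 0.05 and a dotted line at the median of all tested genes (−0.01). Filled points lie at 0.56 to 3.48, in the low-sulfur markers, APR, ATPS and SiR, cysteine synthesis and 1 other transporter copy.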

How the data were processed

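RNA of 6 seedling libraries (3 labelled DMSO, 3 labelled AZD) was used. The FPKM per gene and library were deposited by the authors, who used TopHat2 for mapping, Cufflinks for assembly and Cuffdiff for comparison. Versions were not given in the sources used here, nor was the genome build. The study's methods name a directional kit and the labels another one, so reads from a gene and an antisense partner may not be separable. The fragments behind each value are not listed, which limits precision at low FPKM. All 6 columns were used and 0 left out. None of the gene IDs occurs in the RefSeq gene list, so names are those of the matched Arabidopsis loci, and no coordinates or sequences are shown.

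FPKM were tested with limma 3.58.1 (R 4.3.3, trend, two-sided) on log2(FPKM + 0.5) where the mean reached 0.5 FPKM, with Benjamini-Hochberg adjustment over all tested genes, loci or pairs. No count model was run on FPKM. For 3 libraries per group, exact permutation of 1 gene gives no p under 0.1. The study calls the 3 libraries of a group biological repeats. For QRT-PCR, the study took several plants per replicate, and it refers to the same RNA isolation for sequencing. Neither its account of the sequencing nor the labels say how many plants a library held. Copies were named if they led their locus, moved most in it, passed the test or lay next to the filter, and of the wider list if they passed or led ATPS1, SiR, SULTR4;1 or SLIM1. The members, lists and rules were chosen with earlier results of these data known. The code was tested on simulated data. Alternatives were pseudocounts of 0.1 and 1, no filter or a mean of 1 FPKM, median-of-ratios factors, quantile normalization, no trend, a replicate block and leaving out each library. Python 3.11.15, pandas 2.3.3, numpy 2.4.6 and matplotlib 3.10.9 served for tables and plots.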

Additional observations from a re-analysis of the deposited data

How the results depend on the processing

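The 3 copies of the 10 loci past the test became 5 with a mean of at least 1 FPKM and 5 under quantile normalization (the added copies are of APR3), 2 without the filter and 2 without the trend (APR1 lost in both), 1 with the replicate number as a block, and 1 to 5 when a library was left out. The loci past the test on summed FPKM were 3 under all 8 other settings and 1 to 3 when a library was left out. APR1, whose sum is 1 copy, passed in these 8 settings among loci and in 5 of the 8 among genes. The wider list had 10 copies past the test, 0 under the replicate block (limma, 19 at an unadjusted p under 0.05) and 0 to 10 when a library was left out (16 to 24 unadjusted). The 1 locus whose leading copies differed was lost under the block (0, with 1 at an unadjusted p under 0.05), and the count was 0 to 1 when a library was left out. All tested genes past the test numbered 72 under the block and 189 to 3403 when a library was left out, against 2025. Same-numbered libraries deviated with correlations of 0.018, −0.042 and −0.088 over the tested genes. With 3 libraries per group, these values cannot show whether libraries were paired, and neither the study nor the labels name a pairing. The calls lost under the block are a limit of these results. A difference of leading copies turned in sign in 2 cases, both far from the test in either form. For APR3 it ranged from −0.000463 (without AZD replicate 2) to 0.12 when a library was left out, and for SDI1 from −0.0171 (without AZD replicate 3) to 0.40. The cause was not tested. The call of Gh_A08G0938 (LSU1) held in all 14 settings tried, and no scaling moved the median of all genes by over 0.1 on the log2 scale. Fragments per value were not given, so how far depth limits the low copies was not measured.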

Other observations

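SULTR1;3, a phloem sulfate transporter in Arabidopsis, had 8 matched copies, and those described here were chosen after their values were seen. Gh_D06G0344 stood at 0.358, 0.290 and 0.228 FPKM in the DMSO-labelled libraries and at 1.32, 0.779 and 1.07 FPKM in the AZD-labelled ones. Gh_D13G0546 stood at 2.30, 0.377 and 0.852 FPKM versus 0.0269, 0 and 0.106 FPKM. Each of these copies reached the filter only through the group in which it is high, so the values are a description. Gh_A06G1908, below the filter, gave 0.217, 0.283 and 0.241 FPKM versus 0.781, 0.472 and 0.847 FPKM.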
